A study of Homo sapiens with 24 samples.

Results

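Untreated cells of 4 Hodgkin lymphoma (HL) cell lines were compared by the way the study classed them, with the cell death-resistant lines KM-H2 and L-428 set against the cell death-sensitive lines L-540 and SUP-HD1. The class refers to cell death under AEZS-136, an inhibitor of both PI3K and ERK. The 12 control arrays, 3 per line, out of 24 arrays in the series were the samples, and a gene was followed when the means of both resistant lines lay on one side of the means of both sensitive lines. The control cultures had received the vehicle, DMSO, for 2 h, and the other 12 arrays came from the same lines after 10 µM AEZS-136 for 2 h. RNA was hybridised to Illumina bead arrays, on which each probe gives 1 intensity per array. Each class consisted of 2 established cell lines, and the labels do not state whether the 3 arrays of a line were separate cultures. The p-values of the array fit therefore measured only the spread between arrays, and the spread between lines is given beside them.

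HL lines are cultured descendants of Hodgkin and Reed-Sternberg cells, which carry active NF-kB and JAK-STAT signalling. In most cases such cells arise from B cells that have lost most of their B cell programme. The cell of origin of each line was not tested here. Hodgkin and Reed-Sternberg cells are known for abundant chemokines and cytokines, for the surface receptor CD30 (TNFRSF8) and for the immune checkpoint ligands PD-L1 and PD-L2. Necroptosis is a form of regulated necrosis in which the kinase RIPK3 activates MLKL, a protein that then ruptures the plasma membrane.

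The median bead signal of the control arrays ranged between 96 and 127.8, and 17002 to 19247 of 44053 probes were detected per array, where detected means a detection p under 0.05. Arrays of 1 line correlated with each other at 0.988 or more. Of 8 Hodgkin cell markers, 6 were detected on all 3 arrays in KM-H2, 6 in L-428, 7 in L-540 and 6 in SUP-HD1. IRF4, FSCN1, BATF3 and JUNB were among the markers detected in every line. TNFRSF8 was detected on no array of KM-H2 or SUP-HD1, on 1 of L-428 and on all 3 of L-540, so its probe did not show the defining receptor in most of these lines. Of 9 B cell markers, 5 were detected on all 3 arrays in KM-H2, 2 in L-428, 3 in L-540 and 3 in SUP-HD1. Of 11 T and NK cell markers, 4 were detected in KM-H2, none in L-428, 3 in L-540 and 1 in SUP-HD1, and the part of these marker differences in the results was not tested. Values below are normalized log2 intensities, which serve to compare arrays for 1 probe and not probes with each other. A bulk culture does not tell fewer cells expressing a gene from less RNA per cell.

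Across the 21757 probes detected on at least 3 of the 12 control arrays, 4913 (22.6%) were higher and 5014 (23%) were lower in the resistant lines (limma, adjusted p under 0.05 and a log2 difference over 0.4). Of these, 2600 probes (12%) were higher in both resistant lines than in both sensitive lines, and 2777 (12.8%) were lower in both. A stricter order, in which all 6 resistant arrays lay on one side of all 6 sensitive arrays, held for 1340 called probes (6.16%) in the higher direction and for 1402 (6.44%) in the lower. The ordered probes covered 1731 gene symbols that were higher and 1948 that were lower. Many of these gaps were narrow. The gap, which is the distance between the nearest lines of the 2 classes, had a median of 0.32 among the higher and 0.32 among the lower ordered probes, and it exceeded 2 log2 units for 119 and 77 probes. In 1497 of the 5377 ordered probes the gap was wider than the distance between the lines within either class. Whether called or not, 33.9% of the kept probes were ordered by class in either direction. Class labels unrelated to expression would order a share of 0.333, which is the smallest exact p of 2 lines against 2. Order by class was thus about as frequent as for an arbitrary split of the lines, and order alone does not mark a class trait.

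The lines of a class differed from each other about as much as lines of different classes did. Between lines of different classes, 11450 probes (52.6%) were called between KM-H2 and L-540, 11708 (53.8%) between KM-H2 and SUP-HD1, 10509 (48.3%) between L-428 and L-540, and 10185 (46.8%) between L-428 and SUP-HD1. Within the classes, 10933 probes (50.3%) were called between KM-H2 and L-428 and 11059 (50.8%) between L-540 and SUP-HD1. The plot of probes called per pair shows that both pairs within a class lie inside the range of the pairs across classes.

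**Figure D1:**
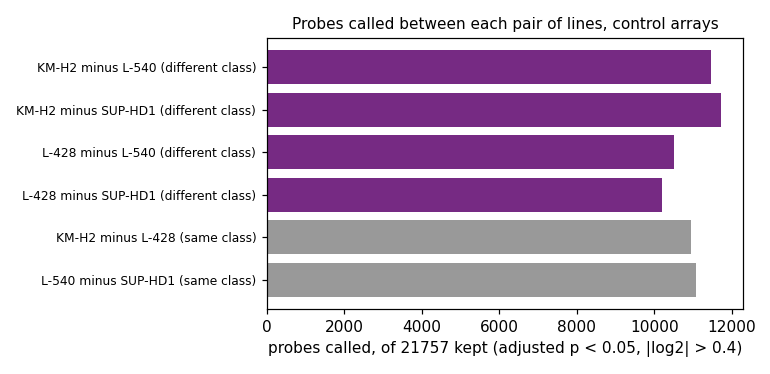
Probes called in limma between each pair of lines on the control arrays, of 21757 kept probes. The 4 pairs of different classes (purple) had 10185 to 11708 called probes, and the 2 pairs of 1 class (grey) had 10933 and 11059.

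With the 4 line means as the replicates, 2 against 2, limma called 0 probes (0%), and the lowest adjusted p was 0.345. An unadjusted p under 0.05 was reached by 1039 probes (4.78%), a share close to the threshold itself. An exact permutation test over 2 lines against 2 cannot give a two-sided p below 0.333. With line as a random block the same 12 arrays gave 441 called probes, and the study methods' t-test of 6 arrays against 6, which treats all arrays of a class as alike, gave 3436. The differences below therefore describe these 4 lines, and their p-values do not extend to other resistant or sensitive lines.

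Among single genes, the widest gaps above the sensitive lines were those of BASP1, MAGEB2, CX3CL1, PCP4 and KYNU. BASP1, a membrane-attached signalling protein first known from brain, had log2 values of 12.33, 12.36 and 12.41 in KM-H2 and 12.64, 12.64 and 12.67 in L-428, against 5.06, 4.63 and 5.09 in L-540 and 5.01, 4.50 and 4.96 in SUP-HD1. It was detected on every resistant array and on no sensitive array, which put it at least 172-fold higher in the resistant lines (difference 7.63 ± 0.11, SE, limma adjusted p = 1.675e-13). MAGEB2, a cancer-testis antigen normally silent outside the germ line, had 11.87, 11.77 and 11.88 in KM-H2 and 10.55, 10.91 and 10.86 in L-428, against 4.48, 4.46 and 4.52 in L-540 and 4.46, 4.73 and 4.35 in SUP-HD1. All sensitive arrays were again below detection, and the difference was at least 74.6-fold (limma adjusted p = 1.198e-13). CX3CL1, the membrane-tethered chemokine fractalkine, had 10.55, 10.85 and 10.80 in KM-H2 and 11.30, 11.44 and 11.39 in L-428, against 4.59, 4.36 and 4.91 in L-540 and 4.47, 4.61 and 4.52 in SUP-HD1. It was at least 62.7-fold higher (limma adjusted p = 1.744e-13), with no overlap between the classes.

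KYNU, the kynureninase of tryptophan breakdown, separated the classes just as fully but also differed between the resistant lines. Its values were 11.73, 11.65 and 11.69 in KM-H2 and 9.38, 9.55 and 9.50 in L-428, against 4.32 to 4.48 on the 6 undetected sensitive arrays, a difference of at least 45.3-fold (limma adjusted p = 3.32e-14). PCP4, a calmodulin-binding protein, was at least 45.5-fold higher. The other 10 genes of the 15 with the widest gaps were PHACTR3 and CALD1, which code for actin-binding proteins, MAGEB1, CD24 and ALCAM, which are a cancer-testis antigen and surface glycoproteins of adhesion, the kinase PASK, JUP (plakoglobin, a junction protein), AUTS2, PRAC1, and LAPTM5, a lysosomal membrane protein of blood cells. Of these 15 genes, 10 were detected on none of the 6 sensitive arrays and 1, PASK, on all of them. PASK had 10.35 to 11.28 on the resistant arrays and 5.90 to 6.37 on the sensitive arrays, and was 21.3-fold higher (limma adjusted p = 6.785e-12). A second probe of JUP, detected on 9 arrays, differed by -0.18 (limma adjusted p = 0.23), so the call of this gene rests on 1 of its probes.

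**Figure D2:**
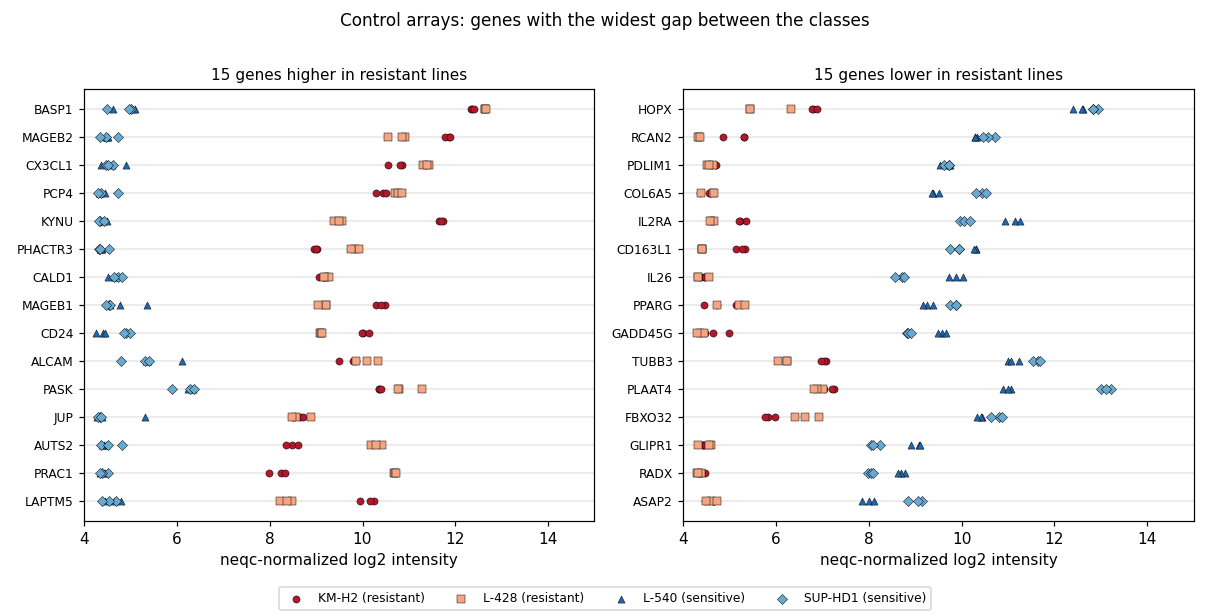
Normalized log2 intensity (x axis) of the 15 genes with the widest gap in each direction, 1 point per control array, 3 arrays per line. In the left panel the resistant lines (red shades) lie right of the sensitive lines (blue shades) for every gene, and in the right panel they lie left of them. This order was a condition for choosing the genes.

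In the opposite direction the widest gap was that of HOPX, a homeodomain protein that acts on transcription without binding DNA itself. HOPX had 6.79, 6.77 and 6.88 in KM-H2 and 5.44, 5.43 and 6.32 in L-428, against 12.61, 12.60 and 12.40 in L-540 and 12.94, 12.83 and 12.84 in SUP-HD1. It was detected in all lines and was 86.4-fold lower in the resistant lines (difference -6.43 ± 0.14, SE, limma adjusted p = 2.658e-12). IL26, a cytokine of the IL-10 family, had 4.36, 4.45 and 4.46 in KM-H2 and 4.32, 4.55 and 4.31 in L-428, against 10.03, 9.88 and 9.72 in L-540 and 8.72, 8.76 and 8.57 in SUP-HD1. No resistant array detected it, and it was at least 19.3-fold lower (limma adjusted p = 2.925e-13). Of the 15 genes with the widest gaps in this direction, 7 were detected on no resistant array and 4 on all of them.

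RCAN2, a regulator of the phosphatase calcineurin, was at least 40.7-fold lower, PDLIM1, a protein of actin fibres, at least 25.6-fold, and COL6A5, a collagen VI chain, at least 30.2-fold. CD163L1, a scavenger receptor, was at least 31.0-fold lower and GADD45G, a stress-inducible growth regulator, at least 18.5-fold lower. TUBB3, the class III beta-tubulin, was detected on all arrays, at 6.05 to 7.08 in the resistant lines and 11.01 to 11.69 in the sensitive lines, a 27.2-fold lower level. PLAAT4, a phospholipid-modifying enzyme known to be induced by retinoids, was likewise detected throughout and 32.4-fold lower, although SUP-HD1 exceeded L-540 by 2.13 log2 units. PPARG, the nuclear receptor of fat cell differentiation, the ubiquitin ligase FBXO32, the DNA replication protein RADX, ASAP2 and GLIPR1 followed, and IL2RA, described with the cytokine receptors, completed the 15. The plot of these 30 genes shows the classes apart for every gene, which the choice of genes required. The 2 lines of a class differed by up to 2.52 log2 units among the higher genes and 2.13 among the lower. The adjusted p over line means lay between 0.345 and 0.621 for the 15 higher genes and between 0.361 and 0.526 for the 15 lower genes (limma).

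Genes of sterol and fatty acid synthesis were mostly higher in the resistant lines. These enzymes build cholesterol from acetyl-CoA and lengthen or desaturate fatty acids, and most of them are known targets of the transcription factors SREBP-1 and SREBP-2. With 1 probe per gene, 1565 of 12418 kept genes (12.6%) were called and ordered higher and 1764 (14.2%) lower. Of the 20 measured genes of this list, 13 were higher, 1 was lower, 2 were called without being ordered and 4 were not called. Their median difference was 1.10, beside -0.03 over all kept genes. The median of KM-H2 minus L-428 was 0.09 and that of L-540 minus SUP-HD1 was -0.42. Differences of opposite sign cancel in such medians, so they do not measure how far apart the lines of a class lay.

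FADS1, the delta-5 desaturase of polyunsaturated fatty acids, had 10.51, 10.41 and 10.42 in KM-H2 and 7.95, 8.33 and 8.28 in L-428, against 4.37, 4.37 and 4.35 in L-540 and 4.70, 4.65 and 4.65 in SUP-HD1. The sensitive lines lay below detection, so the difference was at least 18.8-fold (limma adjusted p = 2.298e-13). SQLE, which makes squalene epoxide and is rate-limiting for cholesterol beyond the mevalonate steps, had 11.89, 11.74 and 11.75 in KM-H2 and 11.23, 11.15 and 11.04 in L-428, against 8.31, 8.31 and 8.33 in L-540 and 9.80, 9.58 and 9.71 in SUP-HD1 (difference 2.46 ± 0.07, SE, limma adjusted p = 1.745e-11). HMGCS1, the synthase that makes HMG-CoA, had 11.63, 11.56 and 11.55 in KM-H2 and 9.96, 10.18 and 10.30 in L-428, against 8.15, 8.30 and 8.49 in L-540 and 8.45 to 8.60 in SUP-HD1 (difference 2.46 ± 0.08, SE, limma adjusted p = 1.094e-10). None of these genes overlapped between the classes.

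Further along the sterol chain, IDI1, which isomerises isopentenyl diphosphate, differed by 1.52, LSS, which closes the sterol rings, by 1.46, MSMO1, a sterol demethylating oxidase, by 1.46, and the mevalonate enzymes MVD and MVK by 1.26 and 0.65. On the fatty acid side, the elongase ELOVL6 differed by 1.64, the desaturase SCD by 1.39 and fatty acid synthase (FASN) by 0.62. INSIG1, which retains SREBP precursors in the endoplasmic reticulum and is itself an SREBP target, differed by 1.29. The probes of 2 of these genes disagreed. Another MSMO1 probe, detected on all 12 arrays, differed by -0.03 (limma adjusted p = 0.854), and a second INSIG1 probe differed by 1.10 without order. All 6 arrays of each class were apart for 12 of the 13 higher genes, and the exception was SREBF2. The genes for the 2 SREBPs ran in opposite directions, with SREBF2 higher by 0.43 and SREBF1 lower by 1.07 (difference -1.07), but the gap of each between the nearest lines was only 0.06 and 0.05. SREBF1 averaged 6.91 in KM-H2, while L-428, L-540 and SUP-HD1 had 8.90, 8.99 and 8.95. CYP51A1 and ACACA were called without being ordered, and DHCR7, ACLY, FADS2 and FDPS were not called, with differences of -0.0013 to 0.38. The list median was 0.67 without L-540 and 0.75 without L-428, but 1.10 without KM-H2 and 1.03 without SUP-HD1. It was 0.70 in the authors' log2 values and 0.72 without background correction.

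For 11 of the 13 higher genes the RefSeq promoter table (GRCh38.p14) held a sequence. The motifs searched were the CCAAT box (ATTGG or its complement, bound by NF-Y) and a sterol response element (TCACNCCAC, both strands). HMGCS1, MVD and SREBF2 are shown because each holds the CCAAT box, and SREBF2 the sterol response element as well. The 150 bases before the start site are given 5′ to 3′ on the gene's strand, with motif matches in capitals.
HMGCS1 (chr5:43313413-43313562, minus strand): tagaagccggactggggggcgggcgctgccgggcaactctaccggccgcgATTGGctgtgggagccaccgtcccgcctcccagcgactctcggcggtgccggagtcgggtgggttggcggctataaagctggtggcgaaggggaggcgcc
MVD (chr16:88663092-88663241, minus strand): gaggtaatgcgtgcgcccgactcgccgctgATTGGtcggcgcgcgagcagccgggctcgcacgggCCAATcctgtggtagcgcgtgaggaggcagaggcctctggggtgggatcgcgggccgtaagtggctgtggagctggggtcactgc
SREBF2 (chr22:41832955-41833104, plus strand): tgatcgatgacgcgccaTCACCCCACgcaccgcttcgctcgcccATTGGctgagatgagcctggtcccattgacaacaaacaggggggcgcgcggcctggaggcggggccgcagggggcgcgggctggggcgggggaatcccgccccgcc
The CCAAT box was found in 6 of these 11 promoters and in 24.4% of 27305 promoters in the table over the same 150 bases. The sterol response element was found in 1 of the 11, that of SREBF2, and in 0.553% of all promoters. A match is a run of letters and was not measured as a binding site here.

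MHC class II genes had the next highest share of higher genes among the 37 lists. The lists were chosen with earlier results of these data known, so this rank only describes them. MHC class II molecules present peptides to CD4+ T cells, CIITA is the coactivator that switches their genes on, and HLA-DM and HLA-DO govern peptide loading. Of 22 measured genes in the list, which also holds the PD-1 ligands, 10 were higher and 2 were lower, 4 were called without order and 6 were not called. The median difference was 1.07. Within the classes, the median of KM-H2 minus L-428 was 0.09 and that of L-540 minus SUP-HD1 was 0.18. Opposite signs cancel in these medians too, so single genes could differ more between the lines of a class.

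HLA-DQB1 had 10.43, 10.79 and 10.52 in KM-H2 and 11.37, 11.08 and 11.07 in L-428, against 8.35, 8.65 and 7.95 in L-540 and 4.73, 4.49 and 4.75 in SUP-HD1. It was undetected in SUP-HD1 only, and was at least 18.5-fold higher over the classes (limma adjusted p = 2.121e-11). HLA-DMB averaged 11.92 in KM-H2 and 11.15 in L-428, against 9.77 in L-540 and 9.40 in SUP-HD1 (difference 1.95 ± 0.10, SE, limma adjusted p = 7.404e-09). CIITA had 7.53, 7.66 and 7.89 in KM-H2 and 7.86, 7.73 and 7.80 in L-428, against 6.92, 6.77 and 7.17 in L-540 and 5.63, 5.92 and 6.23 in SUP-HD1 (difference 1.30 ± 0.11, SE, limma adjusted p = 6.662e-07). The classes did not overlap for any of these genes.

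HLA-DRB3 differed by 2.19, HLA-DRB4 by 1.91, HLA-DPB1 by 1.70, HLA-DOA by 1.57, HLA-DPA1 by 1.52 and HLA-DRA, the invariant partner chain of HLA-DR, by 0.98. The lysosomal protease CTSS, which trims the invariant chain, was undetected in the sensitive lines and at least 1.69-fold higher. All 10 had their 6 resistant arrays above their 6 sensitive arrays. The invariant chain CD74 itself differed by 0.25 and was not called at the probe with the highest mean, while its other probes differed by 0.43 with an ordered call and by 0.60 with a call but no order. The MHC class II enhanceosome genes RFX5, RFXAP and RFXANK differed by -0.18, 0.26 and -0.03 and were not called. HLA genes are highly polymorphic and DRB probes can share sequence with near-identical copies, so the size of an HLA difference is uncertain. Of the other probes of HLA-DRB4, 1 differed by 0.53 and 1 by -0.24 (limma adjusted p = 0.218). The list median was 0.61 in the authors' log2 values and 0.60 without background correction. It was 0.77 without KM-H2 and 0.73 without SUP-HD1, but 1.16 without L-428 and 1.12 without L-540.

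The promoters of HLA-DQB1, HLA-DPB1 and HLA-DOA are printed in the same way, because the conserved upstream module of MHC class II genes ends in a CCAAT box, in capitals here.
HLA-DQB1 (chr6:32666658-32666807, minus strand): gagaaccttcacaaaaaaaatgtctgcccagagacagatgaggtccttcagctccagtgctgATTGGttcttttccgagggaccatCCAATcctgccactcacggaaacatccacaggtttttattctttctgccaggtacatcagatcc
HLA-DPB1 (chr6:33075840-33075989, plus strand): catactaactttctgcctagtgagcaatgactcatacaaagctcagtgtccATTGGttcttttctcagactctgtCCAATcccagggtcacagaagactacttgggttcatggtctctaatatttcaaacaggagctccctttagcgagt
HLA-DOA (chr6:33009592-33009741, minus strand): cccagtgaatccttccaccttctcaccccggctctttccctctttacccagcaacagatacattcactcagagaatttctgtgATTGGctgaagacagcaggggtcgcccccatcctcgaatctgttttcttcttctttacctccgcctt
Of the 10 higher genes, 5 had a promoter in the table, and 4 of them held the CCAAT box within these 150 bases. It was found in 24.4% of all 27305 promoters in the table.

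The PD-1 ligands ran the other way. CD274 (PD-L1) had 4.40, 4.77 and 4.42 in KM-H2 and 4.45, 4.36 and 4.36 in L-428, against 5.66, 6.01 and 5.63 in L-540 and 8.15, 8.20 and 8.12 in SUP-HD1. It was detected on none of the resistant and all of the sensitive arrays and was at least 3.87-fold lower (limma adjusted p = 2.189e-10). PDCD1LG2 (PD-L2) lay at 4.33 to 4.60 on the resistant arrays, against 4.51 to 4.79 in L-540 and 6.14 to 6.50 in SUP-HD1, the only line that detected it. CD86, a costimulatory ligand, gave a different answer by probe. The probe with the highest mean differed by -0.24, another by -4.28 with an ordered call, and the remaining one by 1.53 without order.

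**Figure D3:**
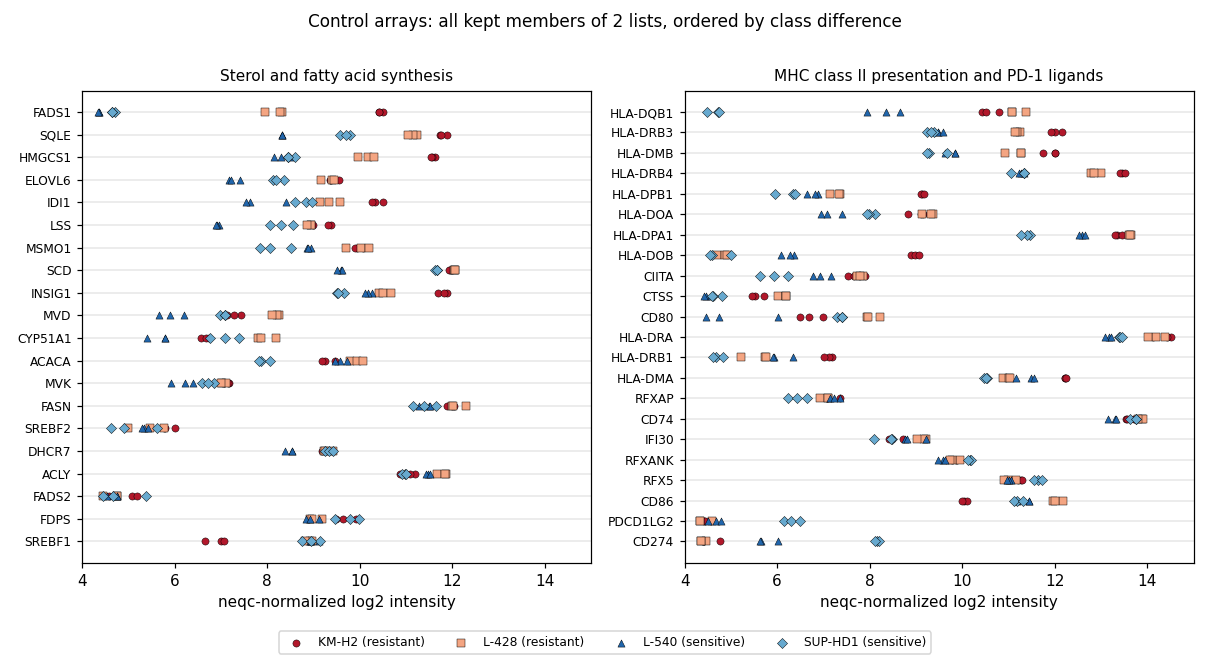
Normalized log2 intensity (x axis) of all 20 measured genes of sterol and fatty acid synthesis (left) and all 22 of MHC class II presentation and the PD-1 ligands (right), 1 point per control array, sorted by class difference. Points of the resistant lines (red shades) lie right of those of the sensitive lines (blue shades) in the upper rows, and CD274 at the bottom of the right panel shows the reverse.

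MHC class I genes did not move as a block. Of 21 measured genes, 6 were higher (28.6%) and 2 lower (9.52%), beside 12.6% and 14.2% over all kept genes. HLA-B averaged 13.33 in KM-H2 and 12.90 in L-428, against 12.63 in L-540 and 7.85 in SUP-HD1, so its difference of 2.88 rested on SUP-HD1. HLA-C differed by -2.68 in the opposite direction, and the transporter chaperone TAPBP and the immunoproteasome subunit PSMB10 by 1.01 and 1.06. Of TAPBP's other probes, neither was called. Of 34 measured interferon-induced genes 8 were higher (23.5%) and 2 lower (5.88%), and the list median of 0.46 turned to -0.26 without SUP-HD1.

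Cytokine receptors and JAK-STAT genes changed in both directions, with the wider gaps among the lower genes. The receptor chains for IL-2 and IL-7 signal through JAK kinases to STAT5, and SOCS and PIM genes are known STAT targets. Of 24 measured genes, 4 were higher (16.7%) and 7 were lower (29.2%), beside 12.6% and 14.2% over all kept genes. IL2RA (CD25) had 5.35, 5.23 and 5.19 in KM-H2 and 4.59, 4.67 and 4.58 in L-428, against 11.16, 11.25 and 10.93 in L-540 and 9.96, 10.05 and 10.19 in SUP-HD1. It was detected in every line but L-428 and was at least 43.6-fold lower in the resistant lines (limma adjusted p = 1.198e-13). IL2RB had 10.22, 10.05 and 10.17 in KM-H2 and 9.85, 9.82 and 10.05 in L-428, against 12.77, 12.86 and 12.48 in L-540 and 12.48, 12.70 and 12.73 in SUP-HD1 (difference -2.64 ± 0.09, SE, limma adjusted p = 9.229e-11). The shared gamma chain IL2RG went the other way, at least 2.69-fold higher, and averaged 7.29 in KM-H2, 6.47 in L-428, 5.88 in L-540 and 4.79 in SUP-HD1. The 3 chains of the IL-2 receptor thus did not share a direction.

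IL7R was at least 8.87-fold and SOCS3, a feedback inhibitor of JAK signalling, at least 6.40-fold lower in the resistant lines. The kinase gene PIM1 had 8.40, 8.44 and 8.21 in KM-H2 and 8.87, 8.53 and 8.60 in L-428, against 11.30, 11.36 and 11.41 in L-540 and 10.63, 10.49 and 10.63 in SUP-HD1 (difference -2.46 ± 0.08, SE, limma adjusted p = 6.92e-11), and PIM2 differed by -1.98. STAT5A itself was higher by 1.48, IL4R by 0.83 and TYK2 by 0.53. SOCS1 was lower by 0.47 with a gap of 0.04. The lower genes of the list were thus IL2RA, IL2RB, IL7R, SOCS3, SOCS1, PIM1 and PIM2, and the higher ones IL2RG, STAT5A, IL4R and TYK2.

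Chemokines, cytokines and TNF family members changed in both directions. CCL5 averaged 13.33 in KM-H2 and 12.95 in L-428, against 10.37 in L-540 and 9.64 in SUP-HD1 (difference 3.14 ± 0.08, SE, limma adjusted p = 1.697e-11). EBI3, the beta subunit of IL-27 and IL-35, had 12.87, 12.98 and 12.96 in KM-H2 and 11.29, 11.34 and 11.32 in L-428, against 8.26, 8.42 and 8.06 in L-540 and 9.60, 9.37 and 9.84 in SUP-HD1 (difference 3.20 ± 0.09, SE, limma adjusted p = 2.399e-11). TNF differed by 2.16, with L-428 at 9.56 and SUP-HD1 at 9.31 close together. Some ordered calls were carried by 1 line. CCR4, a T cell homing receptor, averaged 4.72 in KM-H2 and 9.78 in L-428, against 4.53 in L-540 and 4.67 in SUP-HD1. CCL2, a monocyte attractant, averaged 4.40 in KM-H2 and 4.32 in L-428, against 4.44 in L-540 and 10.84 in SUP-HD1.

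Of 15 measured TNF family receptors and ligands, 5 were higher (33.3%) and 2 lower (13.3%), beside 12.6% and 14.2% over all kept genes. TNFRSF1B, the TNF receptor type II, had 4.59, 4.59 and 4.46 in KM-H2 and 4.53, 4.41 and 4.64 in L-428, against 9.63, 9.54 and 9.82 in L-540 and 7.12, 6.92 and 7.52 in SUP-HD1. Undetected in both resistant lines, it was at least 10.7-fold lower (limma adjusted p = 1.293e-11). TNFSF9 (4-1BB ligand) was at least 4.68-fold higher, TNFRSF21 (death receptor 6) differed by 1.93 and TNFRSF14 (HVEM) by 1.68. CD70 differed by -0.96. TNFRSF4 (OX40) was ordered by a gap of 0.16 and was high in KM-H2 alone, at 9.78, and its second probe was not ordered.

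Of 21 measured NF-kB genes, 4 were higher (19%) and 3 lower (14.3%), beside 12.6% and 14.2% over all kept genes. REL had 7.89, 7.56 and 7.91 in KM-H2 and 7.78, 8.20 and 7.92 in L-428, against 4.82, 4.83 and 4.93 in L-540 and 5.54, 5.46 and 5.66 in SUP-HD1, and was at least 5.76-fold higher in the resistant lines (limma adjusted p = 1.394e-10). RELB and NFKB2, the pair of the non-canonical pathway, differed by 1.68 and 1.19, but in both cases SUP-HD1 lay within 0.12 of a resistant line. The kinase regulator IKBKG differed by 0.89. RELA differed by -0.49 with a gap of 0.03, BCL3 by -0.56 and NFKBIZ, an inducible nuclear regulator of NF-kB, by -2.08. However, a second probe of NFKBIZ, detected on 3 arrays, differed by -0.17 (limma adjusted p = 0.528).

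The genes of cell death carried mixed calls. Of 16 measured death receptor and necroptosis genes, 3 were higher (18.8%) and 2 lower (12.5%), beside 12.6% and 14.2% over all kept genes. MLKL, the executioner of necroptosis, had 10.91, 10.94 and 10.95 in KM-H2 and 9.62, 9.77 and 9.82 in L-428, against 8.44, 8.43 and 8.37 in L-540 and 8.67, 8.83 and 8.86 in SUP-HD1, and was 3.33-fold higher in the resistant lines (difference 1.73 ± 0.06, SE, limma adjusted p = 2.715e-10). RIPK3, the kinase that activates MLKL, had 4.54, 4.62 and 4.47 in KM-H2 and 4.40, 4.41 and 4.32 in L-428, against 5.86, 5.93 and 5.80 in L-540 and 4.44, 4.53 and 4.74 in SUP-HD1. It was thus detected in L-540 only, and SUP-HD1 did not stand apart from the resistant lines. No probe was matched to RIPK1 here.

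TRADD, an adaptor of TNF receptor type I, differed by 0.99 with all arrays apart, and FADD, the adaptor of caspase-8, by -0.62 with a gap of 0.14. BIRC2 (cIAP1), a ubiquitin ligase of the same complexes, averaged 9.39 in KM-H2 and 8.99 in L-428, against 8.96 in L-540 and 4.49 in SUP-HD1, so its ordered call came from SUP-HD1. CASP8 differed by 0.02 (limma adjusted p = 0.908) and lay at 5.21 to 6.51 on the resistant arrays and 5.28 to 6.95 on the sensitive arrays, and its other probes were not called.

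In the BCL2 family 3 of 19 measured genes were higher (15.8%) and 2 lower (10.5%), beside 12.6% and 14.2% over all kept genes. BCL2L1, which codes for the survival protein BCL-XL, had 10.93, 11.01 and 10.95 in KM-H2 and 12.68, 12.42 and 12.47 in L-428, against 10.10, 10.25 and 10.17 in L-540 and 9.97, 10.16 and 10.22 in SUP-HD1 (difference 1.60 ± 0.07, SE, limma adjusted p = 1.711e-09). BCL2 had 8.45, 8.73 and 8.58 in KM-H2 and 6.97, 7.09 and 7.17 in L-428, against 8.84, 8.73 and 8.81 in L-540 and 10.04, 10.00 and 10.19 in SUP-HD1 (difference -1.60 ± 0.07, SE, limma adjusted p = 1.723e-09). The class differences of these survival genes thus had opposite signs, and their sizes are not compared because they come from different probes. BCL2 read 8.73 both in KM-H2 and in L-540, so the classes came close there, with L-428 lowest and SUP-HD1 highest. At BCL2L1, L-428 lay furthest above the sensitive lines. BCL2A1, a survival gene driven by NF-kB, was at least 3.19-fold higher, and MCL1 differed by -0.45 with a gap of 0.09 and was not ordered by its second probe.

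IER3, an immediate early gene that modulates ERK signalling and survival, was not ordered by class. It had 9.90, 10.00 and 10.01 in KM-H2 and 9.12, 8.93 and 9.05 in L-428, against 11.55, 11.61 and 11.72 in L-540 and 8.10, 8.09 and 8.44 in SUP-HD1. The sensitive lines thus lay on both sides of the resistant lines, and the class difference of -0.42 (± 0.08, SE, limma adjusted p = 0.0006073) was 1.29 without L-540 and 0.05 without L-428. TNFRSF8 was not ordered either, and its difference of -0.76 rests on L-540, the line that detected it on all 3 arrays.

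Kinase pathways showed more calls in single members than a common direction. Among 32 measured PI3K, AKT and mTOR genes, 5 were higher (15.6%) and 7 lower (21.9%), beside 12.6% and 14.2% over all kept genes. INPP4B, a phosphatase that removes a phosphate from PI3K products, had 7.40, 7.80 and 7.83 in KM-H2 and 8.62, 9.12 and 8.97 in L-428, against 4.64, 4.41 and 4.46 in L-540 and 4.36, 4.48 and 4.41 in SUP-HD1, and was at least 9.24-fold higher (limma adjusted p = 1.834e-11). INPP5D (SHIP1), another phosphoinositide phosphatase, was at least 3.29-fold higher, the regulatory subunit PIK3R1 was 2.01-fold higher at 1 probe (its other probes differed by 0.44 and 0.09) and the AKT phosphatase PHLPP2 differed by 0.91. In the other direction PIK3R6, a regulatory subunit of PI3K gamma, was at least 7.63-fold lower, PHLPP1 at least 4.01-fold lower, and FOXO1, a transcription factor restrained by AKT, differed by -1.43. The S6 kinase genes RPS6KB1 and RPS6KB2 were both lower, the second by a difference of -0.98. PIK3CD, the PI3K delta catalytic subunit, was ordered by a gap of 0.03 only, so L-540 lay beside KM-H2, and SUP-HD1 was low at 4.96.

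Of 18 measured RAS, RAF and ERK components 3 were higher (16.7%) and 5 lower (27.8%), beside 12.6% and 14.2% over all kept genes. RRAS2 was at least 4.91-fold higher, while RASGRP1, RRAS and SHC1 differed by -1.50, -1.27 and -1.11 with all arrays apart. A second SHC1 probe, detected on 3 arrays, differed by -0.30 (limma adjusted p = 0.0542). MAPK3 (ERK1) differed by 0.43 with a gap of 0.03. Among 22 JNK and p38 genes, 3 were higher and 3 lower (13.6% each), close to the shares over all kept genes. MAP3K5 (ASK1), which activates both kinases under oxidative stress, had 8.57, 8.36 and 8.43 in KM-H2 and 10.16, 9.93 and 9.99 in L-428, against 7.11 to 7.50 in L-540 and 5.14 to 5.69 in SUP-HD1 (difference 2.90 ± 0.11, SE, limma adjusted p = 2.278e-10). MAPK13 (p38 delta) was at least 6.98-fold higher, the phosphatases DUSP1 and DUSP16 differed by -1.44 and -1.33, and MAPK8 (JNK1) lay at or near background in all lines and was not called.

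Of 20 measured p53 genes none was higher and 3 were lower, with 3 called but not ordered and 14 not called. The lower share of 15% was close to the 14.2% over all kept genes, of which 12.6% were higher. CDKN1A, the cell cycle inhibitor p21, had 9.49, 9.51 and 9.15 in KM-H2 and 6.55, 6.26 and 6.60 in L-428, against 11.59, 11.66 and 11.86 in L-540 and 12.08, 11.98 and 12.30 in SUP-HD1, and was 15.8-fold lower in the resistant lines (difference -3.98 ± 0.10, SE, limma adjusted p = 8.168e-12). KM-H2 exceeded L-428 by 2.92 log2 units, a distance larger than the gap of 2.32 between the classes. MDM2 differed by -1.37 and AEN by -0.72, although a second MDM2 probe, detected on 3 arrays, differed by -0.12 (limma adjusted p = 0.551). Differences were also seen at MYC, with a difference of -1.28 and all arrays apart, and at the stem cell factor SOX2, which was undetected in both resistant lines and at least 6.77-fold lower.

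Among other lists, transport and drug metabolism genes had 6 higher (33.3%) and none lower of 18 measured. Over all kept genes 12.6% were higher and 14.2% lower. Its largest differences were at GSTM2, with a difference of 4.66, and GSTM1, with 3.12, which are near-identical glutathione transferases whose probes may share signal, and GSTM1 is commonly deleted in humans. The efflux transporters ABCG1 and ABCG2 were also higher. ABCG1 differed by 2.00 at 1 of its 3 probes, and ABCG2, undetected in the sensitive lines, was at least 1.68-fold higher. The other ABCG1 probes differed by -0.31 and 0.41 without order. The list median of 0.62 was -0.35 among the members detected on all 12 arrays. Adhesion genes had 7 higher (23.3%) and 5 lower (16.7%) of 30. VCAM1 was at least 9.83-fold higher (1 of its other probes was not ordered), ICAM3 at least 8.66-fold and CD44 at least 7.33-fold. The membrane scaffold ANXA2 was lower by 2.24. For glycolysis and hypoxia the count was 4 higher (13.8%) and 5 lower (17.2%) of 29. Among them were the glucose transporter SLC2A3, with a difference of -1.95, and NDRG1, at least 5.80-fold lower. Among B cell markers CD24 was at least 23.4-fold and CD79B at least 2.47-fold higher and EBF1 lower by 2.11. A second CD79B probe, detected on 7 arrays, differed by 0.10 (limma adjusted p = 0.581). Of 11 housekeeping genes 1 was higher and 2 lower.

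Counts of the remaining lists follow, to be read beside 12.6% higher and 14.2% lower over all kept genes. Amino acid response genes driven by ATF4 had 6 higher and 4 lower of 24, and ERK feedback and output genes 3 higher and 2 lower of 15. Antioxidant genes had 3 higher and 5 lower of 27, autophagy and lysosome genes 3 higher and 6 lower of 25, and lymphocyte trafficking genes including the GIMAP GTPases 3 higher and 4 lower of 14. Cyclins and CDK inhibitors had 3 in each direction of 21, DNA replication and mitosis genes 4 higher and 1 lower of 25, chromatin regulators 2 in each direction of 23, and developmental transcription factors 3 in each direction of 22. No gene was higher and 2 were lower in the MYC network, of 10, and among AP-1 and BATF factors, of 11. Hodgkin cell factors had 2 in each direction of 18, T and NK cell markers 2 higher and 3 lower of 20, B cell markers 3 in each direction of 18, myeloid markers 1 higher of 8, and stromal markers 1 lower of 4. The NADPH oxidase subunits had 1 higher of 4, and none of the 3 IER genes was ordered. Chemokines and their receptors had 5 higher and 3 lower of 16, and cytokines and growth factors 4 higher and 3 lower of 17.

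**Figure D4:**
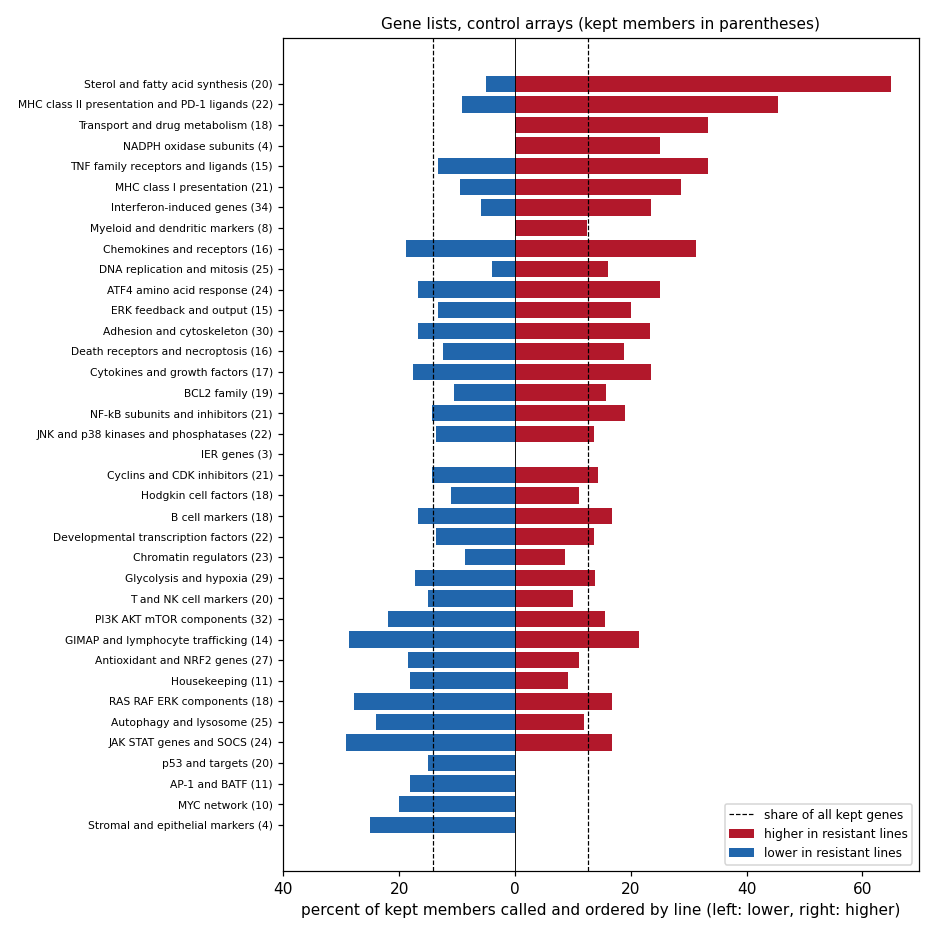
Percent of the measured members of each of 37 gene lists that were called and ordered higher (right, red) or lower (left, blue) in the resistant lines, with the number measured in parentheses. Dashed lines mark the shares over all 12418 kept genes, 12.6% higher and 14.2% lower, and sterol and fatty acid synthesis reached 65% higher.

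The MAGE cancer-testis family was counted after MAGEB2 and MAGEB1 had been seen among the widest gaps. Of 33 MAGE genes on the array 21 were kept, 9 were called and ordered higher and none lower. MAGEA1, MAGEA3, MAGEA4, MAGEA10, MAGEA12 and MAGEC1 were detected in KM-H2 alone, and so were kept through a resistant line. Such genes could hardly be called lower, so the filter in part set these counts. Over all kept genes 12.6% were higher and 14.2% lower, and on chromosome X 22.4% and 4.58%. All arrays were apart for MAGEB1, MAGEB2, MAGED1 and MAGEE1 only. MAGEA4 showed how an ordered call can rest on 1 line, with 13.09 in KM-H2 and 4.56 in L-428, against 4.49 in L-540 and 4.53 in SUP-HD1. MAGEA10 had the same pattern. MAGEC2 averaged 8.15 in KM-H2 and 4.81 in L-428, against 4.59 in L-540 and 4.80 in SUP-HD1. MAGEA9B averaged 11.44 in KM-H2 and 5.82 in L-428, against 5.36 in L-540 and 5.14 in SUP-HD1. Both therefore also lay far higher in KM-H2 than in the other lines. Of the 9 genes, MAGEF1 lies on chromosome 3 and all others lie on the X chromosome, where they are part of that chromosome's count.

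Ordered genes were unevenly spread over the chromosomes, a property that the choice of genes had not used. On chromosome 20, 20 of 328 kept genes were higher (6.1%) and 104 lower (31.7%), and on chromosome 18, 8 of 174 were higher (4.6%) and 48 lower (27.6%). Chromosome 13 had 14 higher and 44 lower of 212. The reverse held on chromosome 21, with 32 higher (24.8%) and 6 lower (4.65%) of 129, on chromosome X, with 103 higher (22.4%) and 21 lower (4.58%) of 459, and on chromosome 16, with 124 higher (22.2%) and 53 lower (9.5%) of 558. The median difference of all kept genes was -0.37 on chromosome 20, -0.33 on chromosome 18, 0.38 on chromosome 21 and 0.29 on chromosome X. Single genes ran against their chromosome, such as PHACTR3, at least 20.1-fold higher and located on chromosome 20. Neighbouring genes are not independent of each other, so these shares are given without a test.

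**Figure D5:**
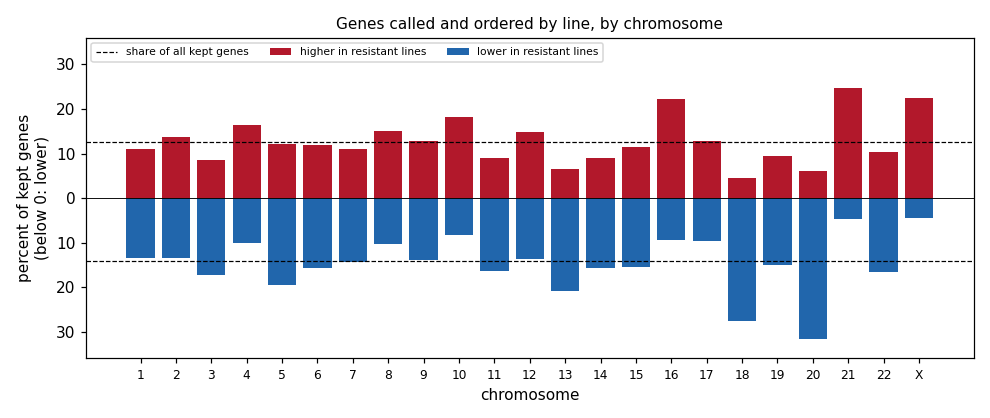
Percent of kept genes on each chromosome that were called and ordered higher (upward, red) or lower (downward, blue) in the resistant lines. Dashed lines mark 12.6% and 14.2%, the shares over all kept genes, and chromosomes 20 and 18 extend furthest downward while chromosomes 21, X and 16 extend furthest upward.

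The same contrast was then taken on the 12 AEZS-136 arrays, which come from the same 4 lines and so carry the same differences between lines. Among the same 21757 probes, 2677 (12.3%) were called and ordered higher and 2915 (13.4%) lower in the resistant lines. Of the higher probes, 1916 were called in both, which is 71.6% of the AEZS-136 calls and 73.7% of the control calls. Of the lower probes, 2058 were called in both, which is 70.6% of the AEZS-136 calls and 74.1% of the control calls. No probe had an ordered call in opposite directions. All 30 genes with the widest gaps were ordered the same way on the AEZS-136 arrays, with differences of 3.99 to 7.45 for the 15 higher and -6.79 to -3.41 for the 15 lower. Of the sterol and fatty acid list, 11 genes were higher on the AEZS-136 arrays, against 13 on the control arrays, and all 11 were among these 13. The 10 higher genes of the MHC class II list, CTSS among them, and both PD-1 ligands had the same calls on both sets of arrays. For PDCD1LG2 this call rests on SUP-HD1, the only line that detected it on the control arrays. Line means as replicates called 0 probes on the AEZS-136 arrays too (limma), with 1139 at an unadjusted p under 0.05, beside 1039 on the control arrays.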

How the data were processed

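RNA of 4 HL lines was measured on 24 arrays, 3 for each of 8 groups of line and treatment. The authors deposited mean bead intensities of 47323 probes, summarised in BeadStudio (version not given in the sources used here), with a detection value, which is 1 minus the detection p-value. They also deposited log2 values after robust spline normalization. In 3270 rows the intensity columns are out of register, and these rows were left out. Intensities of the other 44053 probes were corrected and quantile normalized over all 24 arrays with neqc (limma 3.58.1, R 4.3.3, offset 16), which sets a floor under dim probes. Probes detected on 3 or more control arrays were kept. The fit had 1 coefficient per line (8 residual degrees of freedom), and the contrast was the mean of KM-H2 and L-428 minus that of L-540 and SUP-HD1, with Benjamini-Hochberg adjustment over all kept probes. The thresholds, adjusted p under 0.05 and log2 difference over 0.4, are those of the study's methods.

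A line with no array above detection gave only a bound, set per array at the higher of the probe's own value and the lowest detected value ("at least"). Named genes were the 15 per direction with the widest gap between classes, all 6 arrays apart and all 6 arrays of the higher class detected, of 909 and 1016 eligible genes, plus members of 37 gene lists and a few signalling genes of the study. Members, lists and tests were chosen with earlier results of these data known. Symbols came from the platform annotation (30113 probes with 1 symbol, 8 with several, 17202 not listed). Array number limits the precision. Replicate numbers of the labels did not pair arrays (deviations of same-numbered arrays of different lines correlated at -0.19 to 0.163).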

Additional observations from a re-analysis of the deposited data

Results flagged for a closer look

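Among the 30 genes with the widest gaps and the 9 further genes given whatever their values, 11 had a class difference that differed between AEZS-136 and control arrays by a test of that difference (limma, interaction over 24 arrays, adjusted over 21757 probes). AUTS2 had a difference of 4.15 on the AEZS-136 arrays and 4.90 on the control arrays, a change of -0.748 (adjusted p = 0.00303). GADD45G had -5.40 and -4.68, a change of -0.716 (adjusted p = 0.000524), and PPARG had -3.93 and -4.62, a change of 0.687 (adjusted p = 0.0165). CD274 had -3.06 and -2.50, a change of -0.558 (adjusted p = 0.0188), ASAP2 had -3.41 and -3.90, a change of 0.492 (adjusted p = 0.0157), and COL6A5 had -5.89 and -5.40, a change of -0.491 (adjusted p = 0.00579). IER3 had 0.01 and -0.42, a change of 0.427 (adjusted p = 0.0134), and PLAAT4 had -5.42 and -5.02, a change of -0.404 (adjusted p = 0.0262). GLIPR1 had -3.75 and -4.11, a change of 0.361 (adjusted p = 0.0225), MLKL had 2.09 and 1.73, a change of 0.36 (adjusted p = 0.00844), and PHACTR3 had 4.71 and 5.03, a change of -0.325 (adjusted p = 0.0243). AUTS2, PHACTR3, GADD45G, CD274, ASAP2, COL6A5 and GLIPR1 were undetected in 1 class on the control arrays, so their differences, and these changes, include background values and are no exact sizes. IER3 was ordered by class on neither set of arrays. All the others kept their direction, and the arrays of a line may be technical repeats. The 30 genes were chosen for wide gaps on the same control arrays, which favours smaller differences on the AEZS-136 arrays. How many of all 21757 probes passed this test was not counted, so the 11 genes have no background share beside them.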

How the results depend on the processing

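All 30 genes with the widest gaps kept their direction and their call under every alternative except line means as replicates, under which none was called. Only 5 of them were tested among probes detected on all 12 control arrays. Counts moved more. The authors' log2 values gave 2978 higher and 2985 lower called probes (1777 lower and ordered, 1870 on the AEZS-136 arrays), and no background correction gave 3042 higher and 3067 lower (1818 lower and ordered). Among probes detected on all 12 arrays, 2375 were higher (1377 ordered) and 3041 lower, and pairs of lines gave 7125 (KM-H2 and L-540), 7255 (KM-H2 and SUP-HD1), 6833 (L-428 and L-540), 6596 (L-428 and SUP-HD1), 6828 (KM-H2 and L-428) and 7168 (L-540 and SUP-HD1). This filter tests fewer probes. Line means gave 0 calls in either direction, ordered or not, line as a random block 240 higher and 201 lower, all ordered, and the methods' t-test 1625 higher and 1811 lower, all ordered. With 1 line left out, so that fewer lines had to agree, ordered probes numbered 4138 higher without KM-H2, 4782 higher and 5014 lower without L-428, 4538 and 4823 without L-540, and 4630 and 4899 without SUP-HD1.

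Leaving out 1 array at a time gave 4872 to 4955 higher and 4960 to 5073 lower probes, of which 2586 to 2648 and 2718 to 2809 were ordered. Pairs of lines then gave 11053 to 11480 (KM-H2 and L-540), 11265 to 11807 (KM-H2 and SUP-HD1), 10126 to 10549 (L-428 and L-540), 9762 to 10252 (L-428 and SUP-HD1), 10531 to 11030 (KM-H2 and L-428) and 10610 to 11079 (L-540 and SUP-HD1). With the replicate number as a block, 2601 probes were ordered higher and 2772 lower, and 5354 of these were shared with the fit without the block. The numbers do not pair the arrays.

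Directions turned for few results, and the cause was not tested. CASP8, not called, was at -0.009394 in the authors' values and -0.015 without background correction. Without L-428 it was at -0.24, without SUP-HD1 at -0.63, and without 1 array at -0.048 to 0.15. It was at -0.28 on the control arrays among the last 12 arrays of an export order inferred from the rows out of register. The labels do not give this order. IER3 was at 0.055 without L-428 and 1.29 without L-540, and TNFRSF8 at 0.43 without L-540, which compares lines that detected it on at most 1 array and gives no direction. List medians over 0.4 in size turned for chemokines (-0.22), stromal markers (-0.49) and transport (-0.35) among probes detected on all 12 arrays, for stromal markers without L-428 (-0.26), for NF-kB (-0.19) and GIMAP genes (0.63) without L-540, and for interferon-induced genes without SUP-HD1 (-0.26). Of the 25 lists with a smaller median, 19 turned under at least 1 alternative, among them B cell markers (-0.49), ERK feedback (-0.27) and adhesion (-0.17) among probes detected on all 12 arrays. Signal over background limits the dim probes, for which only bounds are given.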

Other observations

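The 3270 rows whose intensity columns are out of register hold 602 probes with 1 gene symbol, and for these the authors' log2 values were the only ones used. By the same rule, 32 of the 3270 probes were called and ordered higher and 36 lower in the resistant lines (limma on the authors' values). PDK3, a kinase that inhibits pyruvate dehydrogenase, averaged 10.43 in KM-H2 and 10.69 in L-428, against 8.17 in L-540 and 8.54 in SUP-HD1, a difference of 2.21. NFIB, a nuclear factor I family member, averaged 8.10 in KM-H2 and 7.04 in L-428, against 9.13 in L-540 and 10.35 in SUP-HD1, a difference of -2.17. These were the named probes with the widest gaps in their direction among these rows.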
